A study of Homo sapiens with 12 samples.

Results

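Ribosome biogenesis and nucleolar genes, 53 of the 58307 gene rows in the count table, were followed in 2 melanoma cell lines given etoposide with or without rapamycin. A row belonged to the set when its gene symbol equalled a listed symbol exactly. No symbol occurred in more than 1 row, and all 53 genes passed the filter on low counts. Both lines, A375 and SK-MEL-28, derive from human melanomas and are long established in culture. Etoposide traps topoisomerase II on DNA that it has cut, and rapamycin inhibits the kinase mTOR. The 4 groups were A375 Etoposide, A375 Etoposide + Rapamycin, SK-MEL-28 Etoposide and SK-MEL-28 Etoposide + Rapamycin, with 3 polyA-enriched RNA-seq libraries each, 12 in all. Every cell culture had received etoposide, so the comparison within a line was of rapamycin on top of etoposide, and untreated cells were not analysed here. The labels give no dose or duration. They number the 3 libraries of a group without naming their cultures, and the study's methods describe them as biological replicates, so p-values measure the spread between these libraries. Library totals ranged from 28190672 to 32499659 counts.

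Ribosomes are built in the nucleolus. RNA polymerase I transcribes a long precursor rRNA, box C/D and box H/ACA snoRNPs guide its methylation and pseudouridylation, and a long series of assembly factors cuts and folds the precursor into the small and the large subunit. mTOR is known to promote both polymerase I transcription and the translation of ribosomal protein mRNAs, whose 5′ ends carry a run of pyrimidines. PolyA-enriched libraries measure the mRNAs of the factors, not the rRNA they process. All levels are counts scaled to a common library size (CPM) with edgeR's TMM factors, and a lower level in a bulk library cannot be told apart between fewer cells with the transcript and less RNA per cell.

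The labels were checked against lineage markers. SOX10, a neural crest and melanocyte factor, had group means of 291.5 to 474.8 CPM, and S100B had 58.5 to 98.2 CPM. MITF, the regulator of pigment genes, was at 13.5 to 28.3 CPM. The pigment genes themselves were near absent in both lines. PMEL had group means of at most 2.50 CPM, MLANA of at most 1.20 CPM, TYRP1 of at most 1.53 CPM and DCT of at most 1.89 CPM, and TYR was at 0 in both rapamycin groups. Of the markers of other cell types, 6 epithelial genes summed to 169.1 to 312.4 CPM per library, led by KRT18 (group means of 121.8 to 194.5 CPM) and KRT8 (49.2 to 106.3 CPM), while the epithelial genes EPCAM and CDH1 had group means of at most 0.255 and 0.217 CPM. The 5 fibroblast genes summed to 21.1 to 46.0 CPM, 3 endothelial genes to 3.49 to 9.37 CPM and 4 blood genes to 0.0968 to 0.820 CPM. Among the 7883 genes counted at least as deeply as the lowest gene of the set, 227 (2.88%) differed more than 2-fold between the lines under etoposide. The identity of the lines was not tested.

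The 53 genes took 0.558% to 0.562% of the counts in A375 with etoposide and 0.548% to 0.556% with rapamycin added. In SK-MEL-28 the share was 0.602% to 0.627% with etoposide and 0.580% to 0.596% with rapamycin added. Within each line the groups did not overlap and the shift was downward, but its direction in A375 turned with the scaling: the summed TMM-scaled CPM was 5532 to 5547 with etoposide and 5579 to 5668 with rapamycin added. In SK-MEL-28 these sums overlapped, at 5947 to 6175 and 5870 to 6046. Over the same libraries the 79 cytosolic ribosomal protein genes went from 6.19% to 6.91% of counts up to 8.74% to 8.79% in A375, and from 6.63% to 7.00% up to 9.14% to 9.93% in SK-MEL-28. The share of counts from the mitochondrial genome fell from 4.15% to 4.50% down to 3.31% to 3.53% in A375, and from 4.66% to 5.06% down to 4.49% to 4.58% in SK-MEL-28, without overlap. The part of these shifts in the results was not tested.

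Levels between genes were compared per kilobase of the reference transcript. NPM1, the histone chaperone that fills the granular part of the nucleolus, was the highest of the 53 with 608.0 CPM per kb over the 12 libraries. The H/ACA proteins NHP2 and NOP10 followed with 134.9 and 116.8 CPM per kb, then the large subunit factor NOC2L with 106.8 and nucleolin (NCL) with 102.9. The lowest was WDR12, a partner of PES1 and BOP1, with 4.65 CPM per kb. The median of the set was 31.8 CPM per kb against 4.86 over all genes with a reference transcript, and the median gene of the set stood at percentile 86.3. The lowest gene of the set stood at percentile 49.1.

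Rapamycin moved many of the 53 genes by small amounts and in both directions. In A375, 15 genes rose and 12 fell at an adjusted p under 0.05 (edgeR quasi-likelihood test, Benjamini-Hochberg adjustment over all 18844 genes tested), and 26 did not pass. The share of all tested genes called was 28.1%, with 14.3% higher and 13.8% lower. Among genes counted at least as deeply as the lowest gene of the set, called well-counted genes here, it was 46.1%, with 23.4% higher and 22.8% lower, and the set was near that background. In SK-MEL-28, 9 genes rose, 9 fell and 35 did not pass, against 19.0% of all 18897 genes tested (8.83% higher and 10.1% lower) and 29.6% of the well-counted ones (14.4% and 15.2%). Leaving out 1 library at a time gave 17 to 26 called genes in A375 and 7 to 13 in SK-MEL-28, where calls over all genes fell as well. With library totals in place of TMM the split was 11 higher and 17 lower in A375, where all genes shifted the same way (11.7% higher and 17.9% lower, and 18.8% and 29.7% of well-counted genes). SK-MEL-28 had 5 higher and 11 lower, against 7.08% and 12.6% of all genes and 11.4% and 19.6% of well-counted ones. That scaling moved the median of all genes from -0.01 to -0.05 in A375 and from 0.01 to -0.03 in SK-MEL-28.

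The size of the changes was close to that of other well-counted genes. The median log2 fold change was -0.01 in A375, against -0.01 over all genes, while SK-MEL-28 had -0.06 against 0.01. Without regard to sign, the median size of a change was 0.17 in A375 and 0.17 over its well-counted genes, and SK-MEL-28 had 0.12 for both. Over all genes, whose median SE was larger (0.11 in each line against 0.054 for the set), it was 0.22 and 0.18. At a fold change over 1.5, the threshold of the study, PPAN was the only gene of the set called in A375 (5.89% of all genes and 3.46% of well-counted ones) and none was called in SK-MEL-28 (4.99% and 2.66%). PPAN dropped below that fold with library totals (log2 0.56) and without Etoposide replicate 2 (0.56), Etoposide replicate 3 (0.45), Etoposide + Rapamycin replicate 1 (0.58) or Etoposide + Rapamycin replicate 3 (0.54), which left 0 genes past it with library totals. The libraries of the treatment groups did not overlap for 34 genes in A375, where 42.6% of all genes and 60.2% of well-counted genes had no overlap, and for 24 genes in SK-MEL-28, against 35.9% and 47.2%.

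**Figure D1:**
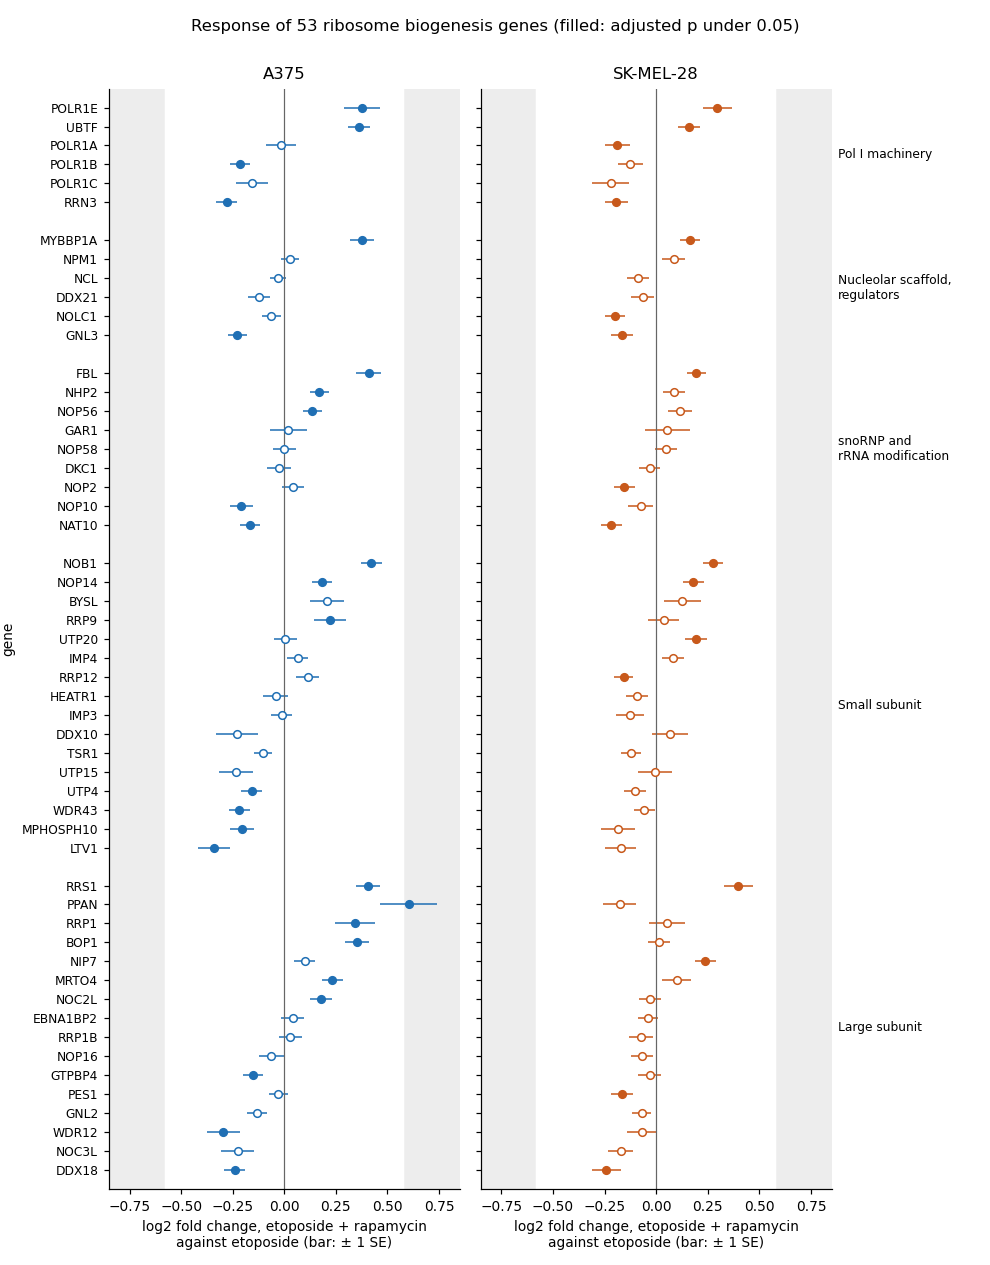
Log2 fold change of etoposide + rapamycin against etoposide for each of the 53 genes (vertical axis, grouped by role) in A375 (left) and SK-MEL-28 (right). Points are edgeR estimates with bars of 1 SE, filled points passed an adjusted p of 0.05, and the grey areas lie past a fold change of 1.5. The 15 higher and 12 lower genes in A375 are spread over every role group, and only PPAN in A375 reaches a grey area.

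The same genes were compared between the lines, which share no library. In both lines, 11 genes passed in the same direction and none in opposite directions, where 10.8% of the 18140 genes tested in both passed in the same direction and 0.436% in opposite ones. Among well-counted genes 18.4% passed in the same direction, and the set was near that share. POLR1E, UBTF, MYBBP1A, FBL, NOP14, NOB1 and RRS1 rose in both lines, and RRN3, GNL3, NAT10 and DDX18 fell in both. Another 16 passed in A375 alone, 7 in SK-MEL-28 alone and 19 in neither, and the difference between the lines passed its own test for 3 genes, given below. The sign of the estimate was the same in both lines for 46 of 53 genes, and for 71.3% of well-counted genes. Across the 53 genes the 2 sets of log2 fold changes had a Pearson r of 0.64, across well-counted genes it was 0.61, and across all genes tested in both lines it was 0.44. Genes are not independent replicates, so these are descriptions.

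Promoter sequences are shown for 4 genes of these patterns, picked by hand, and each holds a searched motif. FBL and NOB1 rose in both lines, NAT10 fell in both, and LTV1 had the largest fall of the set in A375. The 4 do not stand for the set. Of the other genes called in both lines, MYBBP1A and RRN3 hold a searched motif, while UBTF, NOP14 and GNL3 hold none. POLR1E, RRS1 and DDX18 have no window to search. Each sequence is the 250 bases before the RefSeq start (GRCh38.p14), 5′ to 3′ on the gene's strand, with the searched motif it holds in capitals. The windows are chr19:39846380-39846629 on the minus strand for FBL, chr16:69754927-69755176 on the minus strand for NOB1, chr11:34105379-34105628 on the plus strand for NAT10 and chr6:143843088-143843337 on the plus strand for LTV1.
FBL: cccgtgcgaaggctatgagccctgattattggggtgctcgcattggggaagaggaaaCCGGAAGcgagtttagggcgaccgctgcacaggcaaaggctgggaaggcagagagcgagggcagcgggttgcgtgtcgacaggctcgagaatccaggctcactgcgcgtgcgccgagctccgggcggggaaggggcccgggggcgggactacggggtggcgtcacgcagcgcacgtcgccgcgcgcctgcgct
NOB1: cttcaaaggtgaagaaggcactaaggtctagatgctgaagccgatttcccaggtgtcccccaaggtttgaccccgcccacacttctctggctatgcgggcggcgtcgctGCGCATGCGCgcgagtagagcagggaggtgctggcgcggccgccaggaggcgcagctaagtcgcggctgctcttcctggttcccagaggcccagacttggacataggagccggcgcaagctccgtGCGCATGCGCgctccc
NAT10: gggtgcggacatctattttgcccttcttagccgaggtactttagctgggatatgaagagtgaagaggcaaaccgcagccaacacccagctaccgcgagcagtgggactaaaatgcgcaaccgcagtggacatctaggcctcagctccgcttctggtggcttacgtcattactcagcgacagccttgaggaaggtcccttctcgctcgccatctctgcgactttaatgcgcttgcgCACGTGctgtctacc
LTV1: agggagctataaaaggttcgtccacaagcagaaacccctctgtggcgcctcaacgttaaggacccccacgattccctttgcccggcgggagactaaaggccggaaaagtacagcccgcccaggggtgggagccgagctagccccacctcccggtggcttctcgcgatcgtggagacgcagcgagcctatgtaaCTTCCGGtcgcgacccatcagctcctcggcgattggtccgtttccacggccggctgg

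The motifs were searched on both strands in the 44 genes of the set with a RefSeq window. CCGGAAG, the core letters of ETS family sites, which LTV1 holds as the reverse complement, was in 17 of 44 windows (38.6%), against 14.7% of the genes tested and 9.06% of all 27305 genes with a window. The palindromic core of NRF1 sites, which stands in capitals in the NOB1 sequence, was in 4 of 44 (9.09%), against 1.89% and 1.18%. CACGTG, the E-box that MYC can bind, was in 5 of 44 (11.4%), against 8.82% and 6.54%. Motif shares among well-counted genes alone were not computed. Of 63 cytosolic ribosomal protein genes with a window, 19 (30.2%) held CCGGAAG, 1 (1.59%) the NRF1 core and 3 (4.76%) CACGTG. The last 2 motifs read the same on both strands, and no gene was tested for binding. Among the 17 genes with CCGGAAG, 4 rose and 6 fell in A375, and 2 rose and 1 fell in SK-MEL-28. Of the 27 without it, 8 rose and 4 fell in A375, and 5 rose and 5 fell in SK-MEL-28. Of the 5 with CACGTG, 0 rose and 3 fell in A375, and 1 rose and 1 fell in SK-MEL-28. Of the 4 with the NRF1 core, 2 rose and 0 fell in each line. Such small numbers are given as a description.

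The first 15 bases from the RefSeq start were read for the C and 4 further pyrimidines that begin a 5′ TOP mRNA, with the opening run in capitals.
FBL: CTTTTCCacgtgcga
NOB1: CTCTCacgcagccaa
NAT10: agttcctgagaggga
LTV1: gtgacgttatcgccg
Such a start was found in 47 of 63 cytosolic ribosomal protein genes (74.6%) and in 4 of 44 genes of the set (9.09%), against 5.16% of the genes tested. The 4 genes were FBL, NOB1, NPM1 and DDX21. FBL and NOB1 rose in both lines, while NPM1 and DDX21 passed in neither. UBTF, MYBBP1A and NOP14 rose in both lines without such a start.

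The groups by role are small, and their counts of calls are read against the shares of well-counted genes given above (for A375, 23.4% higher and 22.8% lower, and for SK-MEL-28, 14.4% and 15.2%). The polymerase I group held 6 genes, of which 2 rose and 2 fell in each line, or 1 and 2 in SK-MEL-28 with library totals. POLR1E, a subunit that helps polymerase I to initiate, was at 26.7, 22.7 and 24.2 CPM in A375 with etoposide and at 30.2, 34.6 and 30.6 CPM with rapamycin added. In SK-MEL-28 it was at 28.9, 28.0 and 25.98 CPM and then at 34.4, 33.6 and 34.0 CPM. Every rapamycin library stood above every etoposide library of its line, and the log2 fold change was 0.38 ± 0.087 (SE, edgeR adjusted p = 0.00619) in A375 and 0.30 ± 0.071 (adjusted p = 0.0108) in SK-MEL-28. UBTF, which bends the rDNA and recruits the initiation complex, also rose, by 0.36 ± 0.051 (edgeR adjusted p = 0.000266) and 0.16 ± 0.052 (adjusted p = 0.0489). The call of UBTF in SK-MEL-28 lay at the threshold and was lost with RLE factors (adjusted p = 0.0501), with library totals (0.13, adjusted p = 0.116) and without any 1 of the 6 libraries.

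RRN3, also called TIF-IA, joins polymerase I to its promoter factors and is a known target of mTOR signalling at the protein level. Its level was 109.6, 103.8 and 109.7 CPM in A375 with etoposide and 90.7, 91.4 and 83.2 CPM with rapamycin added. In SK-MEL-28 it was 115.0, 104.6 and 104.6 CPM and then 97.6, 96.1 and 90.4 CPM. No rapamycin library reached an etoposide library, and RRN3 fell by 0.28 ± 0.052 on the log2 scale in A375 (edgeR adjusted p = 0.00158) and by 0.19 ± 0.056 in SK-MEL-28 (adjusted p = 0.0301). The call in SK-MEL-28 was lost on leaving out 4 of its 6 libraries in turn.

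POLR1A, the largest subunit of the enzyme, was the most abundant gene of the group by CPM. It was at 126.2, 100.5 and 103.5 CPM in A375 with etoposide and at 107.2, 108.8 and 109.4 CPM with rapamycin added, and these overlapped (log2 fold change -0.02 ± 0.074, edgeR adjusted p = 0.897). In SK-MEL-28 it went from 136.4, 136.7 and 123.7 CPM to 122.7, 108.7 and 117.6 CPM, with no overlap and a log2 fold change of -0.19 ± 0.061 (edgeR adjusted p = 0.0488). POLR1B, the second large subunit, fell in A375 by 0.21 ± 0.050 (edgeR adjusted p = 0.00652) and had a log2 fold change of -0.12 ± 0.061 in SK-MEL-28 (adjusted p = 0.183). POLR1C passed in neither line.

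Among the 6 nucleolar scaffold and regulator genes, 1 rose and 1 fell in A375, and 1 rose and 2 fell in SK-MEL-28. With library totals these were 1 and 2, and 0 and 2. MYBBP1A, a nucleolar binding partner of MYB and of p53, was at 173.8, 160.9 and 151.0 CPM in A375 with etoposide and at 198.4, 211.1 and 219.6 CPM with rapamycin added. In SK-MEL-28 it was at 173.0, 180.7 and 168.8 CPM and then at 199.5, 195.2 and 191.8 CPM. The groups did not overlap in either line, with log2 fold changes of 0.38 ± 0.059 (edgeR adjusted p = 0.000507) and 0.16 ± 0.050 (adjusted p = 0.0366), though the second was lost with library totals (0.13, adjusted p = 0.0889).

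GNL3, or nucleostemin, a GTPase that shuttles between nucleolus and nucleoplasm, fell in both lines. Its levels were 112.8, 118.0 and 118.3 CPM in A375 with etoposide and 98.6, 102.2 and 96.4 CPM with rapamycin added. The SK-MEL-28 levels were 128.6, 117.4 and 123.8 CPM and then 109.0, 109.3 and 112.2 CPM. The groups stood apart in both lines, and the falls were by 0.23 ± 0.046 (edgeR adjusted p = 0.00297) and by 0.17 ± 0.052 (adjusted p = 0.0426). NOLC1, the chaperone that brings snoRNPs to the nucleolus, fell in SK-MEL-28 by 0.20 ± 0.050 (edgeR adjusted p = 0.0140), and its change in A375 was -0.06 ± 0.046 (adjusted p = 0.337).

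The most abundant scaffold proteins did not pass. NPM1 was at 717.1, 780.2 and 775.0 CPM in A375 with etoposide and at 765.3, 781.0 and 761.7 CPM with rapamycin added, and in SK-MEL-28 at 875.2, 789.2 and 784.7 CPM and then at 818.5, 919.7 and 863.8 CPM. The groups overlapped in both lines, with log2 fold changes of 0.03 ± 0.044 (edgeR adjusted p = 0.691) and 0.08 ± 0.055 (adjusted p = 0.327). NCL and the helicase DDX21 also passed in neither line, and their estimates lay between -0.12 and -0.03.

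The snoRNP and rRNA modification group of 9 held 3 genes that rose and 2 that fell in A375, and 1 that rose and 2 that fell in SK-MEL-28. With library totals the A375 split turned to 1 higher and 2 lower. FBL, fibrillarin, is the methyltransferase of the box C/D snoRNPs. It was at 56.4, 65.6 and 61.9 CPM in A375 with etoposide and at 79.1, 79.2 and 84.8 CPM with rapamycin added, and in SK-MEL-28 at 80.5, 80.0 and 77.9 CPM and then at 88.0, 93.4 and 92.0 CPM. The groups did not overlap, and FBL rose 1.33-fold in A375 (log2 0.41 ± 0.061, edgeR adjusted p = 0.000372) and 1.15-fold in SK-MEL-28 (log2 0.20 ± 0.048, adjusted p = 0.0129). Of its partners in the C/D particle, NOP56 changed by 0.14 ± 0.045 in A375 (edgeR adjusted p = 0.0410) and by 0.11 ± 0.056 in SK-MEL-28 (adjusted p = 0.184). NOP58 was at 0.00 ± 0.054 in A375 (edgeR adjusted p = 0.998) and at 0.05 ± 0.052 in SK-MEL-28 (adjusted p = 0.583). No difference between FBL and these genes was tested.

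NAT10, the acetyltransferase that makes N4-acetylcytidine in the small subunit rRNA, was the most abundant gene of this group by CPM and fell in both lines. It went from 123.9, 117.0 and 113.8 CPM to 105.4, 106.3 and 103.2 CPM in A375. In SK-MEL-28 it went from 175.2, 169.1 and 162.5 CPM to 145.1, 148.0 and 143.7 CPM. No libraries overlapped within a line, and the falls were by 0.17 ± 0.048 (edgeR adjusted p = 0.0201) and by 0.22 ± 0.050 (adjusted p = 0.00868). Of the H/ACA proteins, NHP2 rose in A375 by 0.17 ± 0.048 (edgeR adjusted p = 0.0193) while NOP10 fell there by 0.21 ± 0.057 (adjusted p = 0.0157). The call of NHP2 was lost with library totals (0.13, edgeR adjusted p = 0.0651). It was also lost with the trend on GC content taken out, described below (0.06, edgeR adjusted p = 0.440). DKC1, the pseudouridine synthase, and GAR1 passed in neither line.

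The small subunit group of 16 had 3 genes higher and 4 lower in A375, and 3 higher and 1 lower in SK-MEL-28. With library totals it had 2 and 6 in A375, and the SK-MEL-28 split turned to 1 and 2. NOB1, the endonuclease that makes the last cut to 18S rRNA, had the smallest adjusted p of the set in both lines. It was at 63.4, 61.5 and 58.3 CPM in A375 with etoposide and at 82.6, 79.8 and 82.4 CPM with rapamycin added, and in SK-MEL-28 at 71.5, 74.3 and 73.5 CPM and then at 89.6, 86.7 and 89.7 CPM. The groups lay well apart, and NOB1 rose 1.34-fold in A375 (log2 0.42 ± 0.051, edgeR adjusted p = 8e-05) and 1.21-fold in SK-MEL-28 (log2 0.28 ± 0.047, adjusted p = 0.00128). These calls held under all 16 alternatives run in each line.

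NOP14, a small subunit processome protein needed for 18S rRNA, rose by nearly the same amount in both lines. It went from 92.7, 98.2 and 91.0 CPM to 102.7, 107.6 and 108.9 CPM in A375, and from 95.4, 99.2 and 91.7 CPM to 109.4, 107.5 and 108.2 CPM in SK-MEL-28. The log2 fold changes were 0.18 ± 0.049 (edgeR adjusted p = 0.0145) and 0.18 ± 0.050 (adjusted p = 0.0245), with no overlap. The second call was lost with library totals, and its estimates lay between 0.15 and 0.21 over the alternatives. LTV1, an export factor of the small subunit, fell in A375 by 0.34 ± 0.076 (edgeR adjusted p = 0.00515), and its estimate in SK-MEL-28 was -0.17 ± 0.075 (adjusted p = 0.135). LTV1 shares its assembled locus with PHACTR2, so the split of reads between these is uncertain. WDR43, MPHOSPH10 and UTP4, all of the processome, also fell in A375, by 0.22, 0.21 and 0.16. With the trend on GC content taken out (described below) they were at -0.07, -0.04 and -0.13, and none was called. UTP20 rose in SK-MEL-28 by 0.19 ± 0.052 (edgeR adjusted p = 0.0208). That call was lost with library totals and on leaving out 4 of the 6 libraries in turn. The UTP20 estimates lay between 0.16 and 0.21 over the alternatives.

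The large subunit group of 16 had 6 genes higher and 3 lower in A375, and 2 higher and 2 lower in SK-MEL-28. With library totals it had 5 and 5, and 2 and 3. RRS1, which helps to bring the 5S particle into the large subunit, was at 50.8, 50.7 and 47.8 CPM in A375 with etoposide and at 62.7, 64.0 and 70.2 CPM with rapamycin added. In SK-MEL-28 it was at 42.0, 48.1 and 43.4 CPM and then at 54.0, 62.7 and 59.6 CPM. RRS1 rose by the same factor in both lines with no overlap, 1.32-fold in each (log2 0.41 ± 0.058, edgeR adjusted p = 0.000291, and 0.40 ± 0.070, adjusted p = 0.00169).

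DDX18, an RNA helicase of the large subunit precursor, fell in both lines. It went from 84.3, 81.6 and 86.9 CPM to 69.3, 74.6 and 69.4 CPM in A375. In SK-MEL-28 it went from 102.7, 87.4 and 90.7 CPM to 72.9, 81.9 and 83.3 CPM. The libraries did not overlap, and both falls were by 0.24 (SE 0.051, edgeR adjusted p = 0.00391 in A375 and SE 0.069, adjusted p = 0.0276 in SK-MEL-28).

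NOC2L, the most abundant gene of the large subunit group by CPM, was at 277.3, 285.5 and 273.0 CPM in A375 with etoposide and at 309.7, 296.0 and 336.8 CPM with rapamycin added. In SK-MEL-28 it was at 278.7, 307.9 and 298.9 CPM and then at 293.1, 278.5 and 298.4 CPM. The groups were apart in A375 (log2 fold change 0.18 ± 0.052, edgeR adjusted p = 0.0214) and overlapped in SK-MEL-28 (-0.03 ± 0.053, adjusted p = 0.766). The call in A375 was lost with library totals (0.13, edgeR adjusted p = 0.0662). PES1, BOP1 and WDR12 form a complex needed for the maturation of the large subunit rRNA. In A375, BOP1 rose and WDR12 fell by 0.30 ± 0.079 (edgeR adjusted p = 0.0140). PES1 was at -0.03 ± 0.047 there (edgeR adjusted p = 0.697). With the trend on GC content taken out (described below), neither BOP1 nor WDR12 was called in A375. BOP1 was then at 0.08 (edgeR adjusted p = 0.267) and WDR12 at -0.14 (adjusted p = 0.209). No difference between these genes was tested.

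Several of these calls were lost on leaving out 1 library, which also leaves fewer libraries to estimate the spread. In A375, NAT10 was not called without any 1 of the Etoposide + Rapamycin replicates 1, 2 and 3, NOP14 without Etoposide + Rapamycin replicate 3 or Etoposide replicate 3, and NOC2L without Etoposide + Rapamycin replicate 1 or 3 or Etoposide replicate 3. In those fits NAT10 lay between -0.17 and -0.15 and NOP14 at 0.17 and 0.16, while NOC2L was at 0.19, 0.13 and 0.16. NOP56, NHP2, NOP10, UTP4, RRP9, MPHOSPH10, WDR12, RRP1 and GTPBP4 also lost their A375 calls without at least 1 library. In SK-MEL-28 the calls of NOLC1, NAT10, NOB1, RRS1 and NIP7 held under all 16 alternatives, and POLR1A, POLR1E, UBTF, RRN3, MYBBP1A, GNL3, FBL, NOP2, UTP20, NOP14, DDX18, RRP12 and PES1 each lost the call without at least 1 library, with edgeR adjusted p up to 0.212 over the alternatives.

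**Figure D2:**
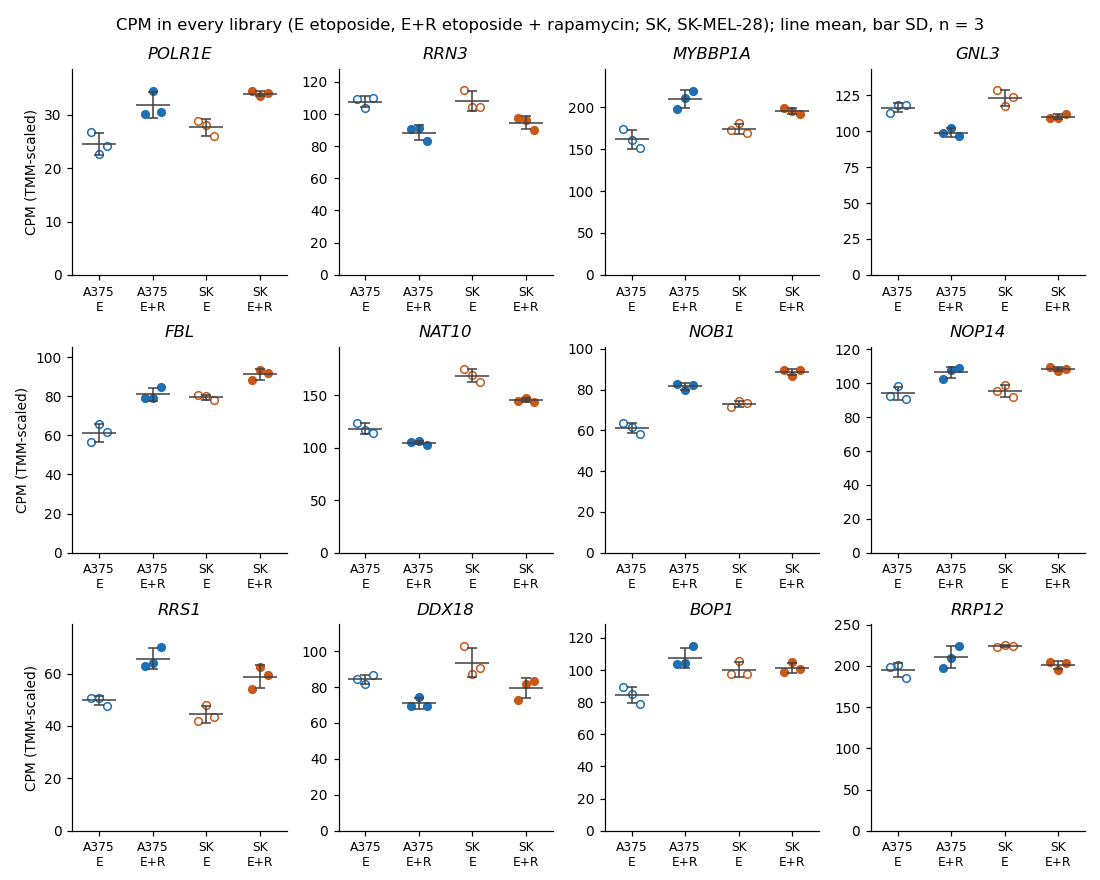
CPM (TMM-scaled, linear axis from 0) of 12 named genes in each library, with open points for etoposide (E) and filled points for etoposide + rapamycin (E+R), blue for A375 and orange for SK-MEL-28. Horizontal lines are group means and bars are SD over 3 libraries. FBL, NOB1 and RRS1 are higher and RRN3, NAT10 and DDX18 lower with rapamycin in both lines, while BOP1 is higher in A375 and overlaps in SK-MEL-28.

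The response differed between the lines for 3 of the 53 genes at an adjusted p under 0.05 (interaction in the fit of 12 libraries), against 5.62% of all 20101 genes tested and 11.1% of the well-counted ones. The share of genes with the lower response in SK-MEL-28 was 2.97%, or 5.76% of well-counted genes. All 3 had the lower response in SK-MEL-28. BOP1 went from 89.5, 85.0 and 79.1 CPM to 103.6, 104.1 and 114.9 CPM in A375 (log2 fold change 0.35 ± 0.060, edgeR adjusted p = 0.000898), and from 97.8, 105.6 and 97.3 CPM to 99.0, 105.0 and 100.4 CPM in SK-MEL-28 (0.01 ± 0.053, adjusted p = 0.882). The difference was -0.33 ± 0.082 (edgeR adjusted p = 0.0263). RRP12, a HEAT repeat factor of the small subunit and the most abundant gene of its group by CPM, went from 198.9, 201.6 and 184.8 CPM to 197.4, 209.6 and 224.4 CPM in A375 and from 223.6, 225.6 and 223.7 CPM to 205.2, 195.6 and 203.4 CPM in SK-MEL-28. The groups overlapped in A375 and were apart in SK-MEL-28, and the difference was -0.26 ± 0.070 (edgeR adjusted p = 0.0372). MYBBP1A and NOC2L came next, with differences of -0.21 ± 0.076 (edgeR adjusted p = 0.127) and -0.20 ± 0.073 (adjusted p = 0.128), which did not pass.

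PPAN, a large subunit assembly factor, had the largest difference in response, -0.77 ± 0.18 (edgeR adjusted p = 0.0210). It was at 37.9, 28.2 and 23.3 CPM in A375 with etoposide and at 46.7, 39.8 and 48.8 CPM with rapamycin added, a 1.52-fold rise (log2 0.60 ± 0.14, edgeR adjusted p = 0.00669). In SK-MEL-28 it was at 36.2, 36.8 and 39.2 CPM and then at 30.2, 32.3 and 37.0 CPM, with overlap (log2 -0.18 ± 0.081, edgeR adjusted p = 0.152). PPAN lies in one assembled locus with P2RY11 and with the read-through gene PPAN-P2RY11, whose mean count was 2064 against 1091 for PPAN, so reads could be assigned to either and the PPAN value is uncertain. PPAN-P2RY11 had log2 fold changes of 0.02 ± 0.051 and 0.01 ± 0.099. With both rows summed the change in A375 was 0.22 ± 0.055 (edgeR adjusted p = 0.00922) and the difference in response was -0.27 ± 0.10 (adjusted p = 0.147). This sum was chosen after the values were seen. The number of genes with a different response ranged from 0 without A375 Etoposide + Rapamycin replicate 3 (9 at an unadjusted p under 0.05) to 5 without A375 Etoposide replicate 1.

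The response in A375 moved with the GC content of the transcript. Across the 53 genes the log2 fold change and the GC content of the reference transcript had a Pearson r of 0.77 in A375, where 7589 well-counted genes had 0.52. SK-MEL-28 had 0.25 for the set and 0.10 for the well-counted genes. Genes were split into 3 equal classes by GC content. Of the 16 genes of the set in the highest class, 11 rose and 0 fell in A375. Of the 17 in the lowest class, 0 rose and 8 fell. Well-counted genes showed the same order in A375, with 47.1% higher and 5.78% lower in the highest class, and 4.85% higher and 45.01% lower in the lowest. In SK-MEL-28, 5 genes of the set rose and 3 fell in the highest class, against 17.4% and 13.7% of well-counted genes. In the lowest class 2 rose and 3 fell, against 9.94% and 15.99%.

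With each library's trend on GC content taken out, an alternative chosen after the values were seen, A375 had 10 genes higher and 4 lower, and 11 of these 14 had been called before. Calls then fell over all genes too, from 28.1% to 20.9%, and from 46.1% to 33.8% of well-counted genes. POLR1E, UBTF, RRN3, MYBBP1A, FBL, NOP10, NAT10, NOP14, NOB1, RRS1 and MRTO4 were still called in A375. Among these, MYBBP1A shrank to 0.20 ± 0.050 (edgeR adjusted p = 0.0146) and RRN3 to -0.15 ± 0.044 (adjusted p = 0.0295), while NOB1 was at 0.35 and NAT10 at -0.20. GNL3 (-0.11, edgeR adjusted p = 0.0749), DDX18 (-0.08, adjusted p = 0.216), NOC2L (0.01, adjusted p = 0.858), BOP1 (0.08, adjusted p = 0.267) and PPAN (0.40, adjusted p = 0.0532) were not, nor were POLR1B, NOP56, NHP2, LTV1, WDR43, MPHOSPH10, UTP4, RRP9, WDR12, RRP1 and GTPBP4. The difference in response was then called for 0 of 53 by edgeR, against 3.41% of all genes and 6.53% of well-counted ones, and 4 had an unadjusted p under 0.05. DESeq2 with the trend left in called 3. With the trend taken out, the count of changed genes in SK-MEL-28 was 17, against 21.0% of all genes and 33.4% of well-counted ones. Whether the trend arose in the cells or in the libraries was not tested.

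**Figure D3:**
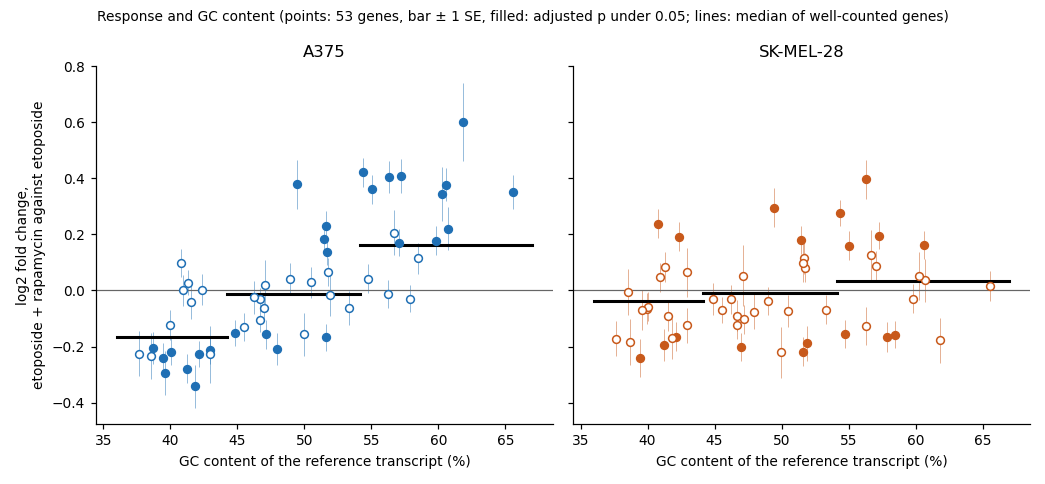
Log2 fold change of etoposide + rapamycin against etoposide (vertical axis) by GC content of the reference transcript in percent (horizontal axis), for the 53 genes in A375 (left) and SK-MEL-28 (right). Bars are 1 SE, filled points passed an adjusted p of 0.05, and black lines are medians of well-counted genes in each class of GC content, drawn over the range plotted. In A375 the lines step from -0.17 to 0.16 and the points follow, while in SK-MEL-28 the lines run from -0.04 to 0.03.

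The 53 genes were set beside the other genes of the pathway and beside the ribosomal proteins. Of 138 other ribosome biogenesis genes, 29 rose and 20 fell in A375, and 13 rose and 8 fell in SK-MEL-28, with median log2 fold changes of -0.02 and 0.05. Over all genes 14.3% were higher and 13.8% lower in A375, while SK-MEL-28 had 8.83% and 10.1%. Well-counted genes had larger shares, 23.4% higher and 22.8% lower for A375, with 14.4% and 15.2% for SK-MEL-28. The 138 genes had median SEs of 0.0641 (A375) and 0.0647 (SK-MEL-28), near the 0.0605 and 0.063 of well-counted genes. Against the well-counted shares the 138 held no excess of calls in either direction. With library totals the split of these 138 turned in both lines, to 22 higher and 31 lower and to 11 and 14. The cytosolic ribosomal protein genes behaved otherwise. Of 79, 76 rose and 1 fell in A375, and 76 rose and none fell in SK-MEL-28, with medians of 0.40 and 0.50, and 75 rose in each line with library totals. Of 14 host genes of snoRNAs, 9 rose and 1 fell in A375 and 10 rose and none fell in SK-MEL-28, and 8 rose in each line with library totals. Of 78 mitochondrial ribosomal protein genes, 12 rose and 14 fell in A375, and 6 rose and 1 fell in SK-MEL-28, which became 8 and 18, and 5 and 4, with library totals. Medians of the 53 genes were thus near 0 where those of the cytosolic ribosomal proteins were at 0.40 and above, as descriptions with no test of the lists.

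**Figure D4:**
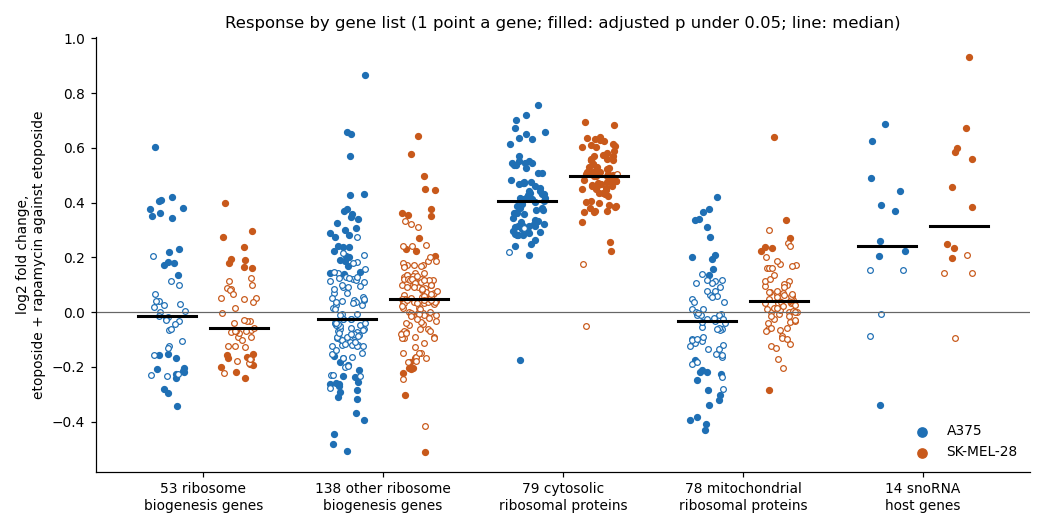
Log2 fold change of etoposide + rapamycin against etoposide (vertical axis) for every tested gene of 5 lists (horizontal axis), in blue for A375 and in orange for SK-MEL-28. Each point is a gene, filled points passed an adjusted p of 0.05, and black lines are list medians. The 53 ribosome biogenesis genes straddle 0 as their 138 relatives do, and the cytosolic ribosomal protein genes lie almost wholly above 0 with medians of 0.40 and 0.50.

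Within the other pathway genes, the largest changes were in single factors. NOP53, which brings the exosome to the large subunit precursor, rose by 0.87 ± 0.054 in A375 (edgeR adjusted p = 5.54e-07) and by 0.64 ± 0.059 in SK-MEL-28 (adjusted p = 9.92e-06). TCOF1, or treacle, a partner of UBTF on the rDNA, rose by 0.65 ± 0.075 in A375 (edgeR adjusted p = 6e-05). EXOSC5, an exosome subunit, rose by 0.57 ± 0.063 in A375 (edgeR adjusted p = 4.2e-05), and its partner MPHOSPH6 fell by 0.51 ± 0.11 in SK-MEL-28 (adjusted p = 0.00455). POLR1D, shared by polymerases I and III, rose by 0.58 ± 0.060 in SK-MEL-28 (edgeR adjusted p = 2.67e-05), and POLR2K fell by 0.29 ± 0.058 in A375 (adjusted p = 0.00277). KRR1 fell by 0.51 ± 0.061 in A375 (edgeR adjusted p = 8.15e-05) while TSR3 rose there by 0.43 ± 0.072 (adjusted p = 0.000810). LLPH fell by 0.32 ± 0.059 (edgeR adjusted p = 0.00161) and the HSP90 cofactor RPAP3 by 0.48 ± 0.072 (adjusted p = 0.000378), both in A375. All these genes are the extremes of their lists, and where 1 line is named the change in the other is not given. Their values were not recomputed with the GC trend taken out or with libraries left out.

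Under etoposide alone, 16 of the 53 genes were higher in SK-MEL-28 than in A375 and 1 was lower (edgeR, fit of 12 libraries), against 15.1% and 16.7% of all genes (31.8% in all) and 22.8% and 23.5% of well-counted genes (46.4%). The libraries of the lines did not overlap for 22 of the 53, against 43.3% of all genes and 55.0% of well-counted ones. The median difference was 0.11 on the log2 scale, where that of all genes was -0.00. NAT10 had the largest difference, with 162.5 to 175.2 CPM in SK-MEL-28 and 113.8 to 123.9 CPM in A375 (0.51 ± 0.046, edgeR adjusted p = 1.54e-07). POLR1B had 76.6 to 82.0 CPM against 56.8 to 58.0 CPM (0.46 ± 0.057, adjusted p = 7.86e-06). NOC3L and FBL followed with 0.45 ± 0.072 (edgeR adjusted p = 0.000115) and 0.37 ± 0.057 (adjusted p = 6.74e-05).

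UTP20, a very large processome protein, was the 1 gene lower in SK-MEL-28. It was at 51.5, 48.6 and 51.1 CPM there and at 73.2, 66.1 and 64.8 CPM in A375, a log2 difference of -0.43 ± 0.053 (edgeR adjusted p = 7.14e-06). By role, the genes higher in SK-MEL-28 were 2 of 6 in the polymerase I group, 1 of 6 scaffold and regulator genes, 4 of 9 snoRNP and modification genes, 2 of 16 small subunit genes and 7 of 16 large subunit genes. No gene of the set passed with a fold difference over 1.5, where 12.5% of all genes and 8.23% of well-counted ones did. The etoposide libraries here are also the controls of the rapamycin comparisons, so no overlap between the comparisons was read.

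**Figure D5:**
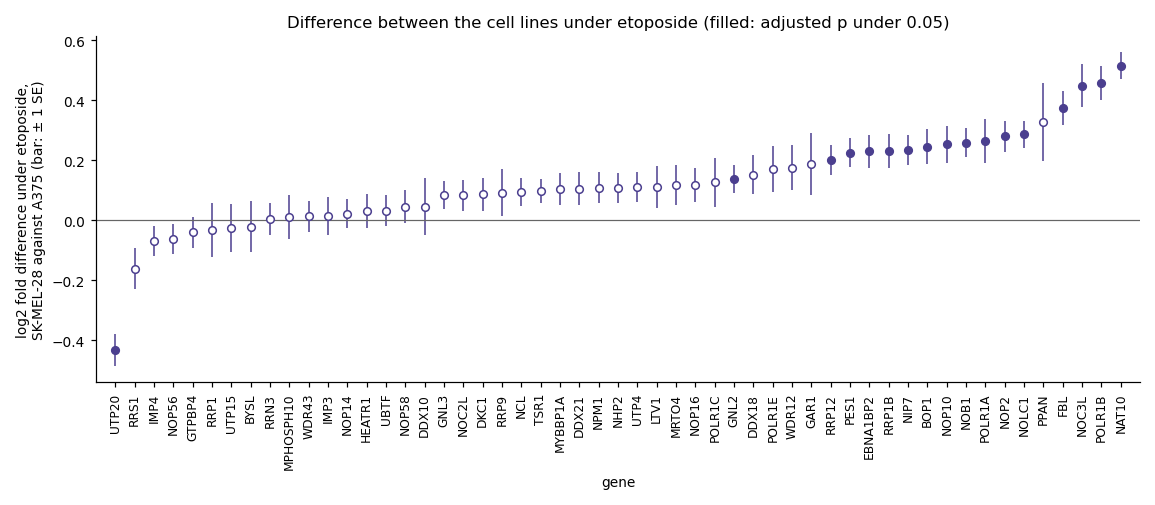
Log2 fold difference of SK-MEL-28 against A375 under etoposide (vertical axis) for each of the 53 genes (horizontal axis, in rising order), with bars of 1 SE. Filled points passed an adjusted p of 0.05, 16 of them above 0 from GNL2 up to NAT10 at 0.51, and 1 below, UTP20 at -0.43.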

How the data were processed

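The authors mapped clean reads from polyA-enriched RNA to hg38 with HISAT2 and estimated expression per gene with StringTie from an Ensembl annotation, and deposited raw counts per gene for 12 libraries in 4 groups, with no normalization and no pooling. How coverage became counts is not given in the sources used here. The 5 rows that name no gene held at most 0.00529% of a library's counts and were left out. Groups came from the labels.

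Counts were tested with edgeR 4.0.16 in R 4.3.3 (filterByExpr with a minimum count of 10, TMM, glmQLFit, glmQLFTest), each line alone, and all 12 libraries for the difference in response and between lines under etoposide. P-values were adjusted over all genes tested, and calls were made at 0.05. Standard errors were derived from the log2 fold change and the F statistic. On simulated counts with 200 genes changed 1.5-fold, false calls made up 10.9% of calls in the A375 fit and 9.52% in SK-MEL-28. They made up 9.68% for the difference in response and 6.32% between lines. More of the calls just under 0.05 may thus be false than the threshold states. The simulation changed 200 genes, while 5295 were called in A375, so its shares may not carry over to the data. Transcript length and GC content were read from GENCODE release 44 (GRCh38), matching 53 of 53 genes and 83.8% of the genes tested. Well-counted genes had a mean count of at least 625.75, that of the lowest gene of the set.

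Genes with values in every library were the most abundant of each role group, up to 2 per group called in both lines, those past a fold change of 1.5 and the 5 with the smallest interaction p. From each other pathway list, the largest rise and fall among genes that passed are given. LTV1, UBTF, POLR1B, UTP20 and other genes given by estimate alone were chosen after their values were seen. The members and lists were chosen with earlier results of these data known. Alternatives were DESeq2 1.42.0, RLE factors, library totals, other filters, one fit of 12 libraries, a replicate block, summed rows and each library left out. Replicates differed beyond sampling noise (chi-square per degree of freedom 5.15 to 10.5), so precision is given by their spread.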

Additional observations from a re-analysis of the deposited data

Results flagged for a closer look

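For 3 of the 53 genes a test of the difference itself separated the rapamycin response of SK-MEL-28 from that of A375, where 5.62% of all genes and 11.1% of well-counted genes were called, so the count is no more than the background. The log2 difference, SK-MEL-28 less A375, was -0.77 for PPAN (edgeR adjusted p = 0.0210), -0.33 for BOP1 (adjusted p = 0.0263) and -0.26 for RRP12 (adjusted p = 0.0372). Over 21 alternatives each, the call held under 13 for PPAN, 13 for BOP1 and 11 for RRP12, with adjusted p from 0.000647 to 0.147, from 0.0027 to 0.348 and from 0.00511 to 0.225. None of the 3 held with the GC trend taken out. The cause was not tested.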

How the results depend on the processing

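The counts of called genes were 27 in A375, 18 in SK-MEL-28, 3 for the difference in response and 17 between the lines, and moved with the threshold, the filter, the GC trend and single libraries. With a fold change over 1.5 as well they were 1, 0, 1 and 0. With genes kept from 1 count in 1 library upward they were 19, 9, 1 and 16. With the GC trend taken out, chosen after seeing the data, they were 14, 17, 0 and 22. Leaving out each library gave 17 to 26 in A375 (17 without Etoposide + Rapamycin replicate 3), 7 to 13 in SK-MEL-28, 0 to 5 for the difference in response and 15 to 20 between the lines. Calls over all genes fell as well, in A375 from 5295 to 3886 without that library and to 3856 with the 1-count filter, and in SK-MEL-28 from 3582 to at least 2432 on leaving out a library and to 2508 with the filter. In SK-MEL-28 the count was 11 without Etoposide + Rapamycin replicate 2, 8 without its replicate 3, 11 without Etoposide replicate 2 and 7 without its replicate 3. Median log2 fold changes ranged from -0.02 to 4e-04 in A375 and from -0.06 to -0.04 in SK-MEL-28 on leaving out libraries. The A375 median, -0.01, turned positive without Etoposide + Rapamycin replicate 3 (4e-04) and with the GC trend taken out (0.01). The A375 split turned from 15 higher and 12 lower to 11 and 17 with library totals, which lowered the median of all genes as well (-0.01 to -0.05). No called gene changed sign under the alternatives run, and 172 of the values recomputed for called genes lost their call. The cause of the lost calls was not tested.

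Libraries with the same replicate number in a line did not deviate together over all tested genes (correlations -0.03 to 0.02). The numbers were therefore taken to name libraries only, though such a correlation could miss a pairing that touched few genes. With the replicate block the counts were 21, 12 and 1, and in A375 calls over all genes fell as well, from 5295 to 4480. No block was run between the lines, since a replicate number lies within a line.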

Other observations

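The mean of the 53 genes over their centred log2 CPM, taken within each line, ranged over the 12 libraries from -0.03 to 0.02. Among 12339 other genes with a mean count of at least 100, those whose centred levels followed this mean most closely over the 12 libraries were SAV1 (Pearson r 0.88), HABP4 (0.87), ARHGAP11A (0.86), UBE2C (0.85) and PSMC3 (0.84). With so narrow a range and so many candidates these are descriptions of these libraries.

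P2RY11, the neighbour of PPAN, also had a different response between the lines (log2 difference -0.76, edgeR adjusted p = 0.0383). The log2 fold change was 0.34 in A375 (edgeR adjusted p = 0.0312) and -0.43 in SK-MEL-28 (adjusted p = 0.0825, not called). P2RY11 shares its assembled locus with PPAN and the read-through gene, so its value is uncertain in the same way as that of PPAN. P2RY11 was chosen after its values were seen. Among the 9 melanocyte lineage markers, MITF was the one called in both lines with rapamycin, and it is named after its values were seen. It fell by 0.51 in A375 (edgeR adjusted p = 0.00248) and by 0.50 in SK-MEL-28 (adjusted p = 0.0032). S100B, S100A1 and DCT also fell in A375, by 0.58, 0.18 and 1.70 (edgeR adjusted p = 4.13e-05, 0.0457 and 0.0106), and were at -0.16, -0.05 and 0.11 in SK-MEL-28. SOX10, PMEL, MLANA and TYRP1 passed in neither line, and TYR was too low to be tested. Of the markers of other cell types, the fibroblast gene LUM fell in both lines, by 0.73 (edgeR adjusted p = 0.00502) and 0.66 (adjusted p = 0.000806). In A375, DCN fell by 0.63 (edgeR adjusted p = 0.0172) and KRT18 rose by 0.25 (adjusted p = 0.0157). In SK-MEL-28, KRT8 fell by 0.21 (edgeR adjusted p = 0.0107) and PECAM1 by 0.70 (adjusted p = 0.0488). Their part in the results was not tested.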
